A study of Mus musculus with 8 samples.

Results

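Genes of the interferon-inducible families were examined in RNA from liver macrophages of C57BL/6 mice, a common inbred strain, kept on a western diet (WD, 4 libraries) or a normal diet (ND, 4 libraries). The members are all rows of the authors' table of changed genes whose symbol begins with Ifi, Oas, Gbp, Irg, Isg, Slfn, Trim, Parp or Irf, together with Mx1, Mx2, Zbp1, Rsad2, Usp18, Xaf1, Cmpk2, Rtp4, Dhx58 and Bst2 where listed. This gave 37 members among 2386 listed genes. Diet composition and duration, the isolation of the macrophages, and the sex and age of the mice are unknown from the labels. The table writes the groups as WDV and NDV with the V unexplained, and they are read here as WD and ND. It holds 1 fold change per gene and no value of a single library, so whether libraries of the diets overlap cannot be read from it. Errors below are the authors' standard errors (SE) on the log2 scale, and a fold change is WD over ND.

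Every listed gene had already passed an unadjusted p below 0.05 (largest, 0.04995) and a log2 fold change above 1 in size (smallest, 1.00011) in this same contrast. The choice of members therefore used the contrast through the table, and the counts of members that changed are a description. Of a gene that is not listed, nothing can be said here: it may lie inside these limits or may have gone unmeasured. Genes are called higher or lower where the authors' deposited table gives an adjusted p below 0.05. None of 20 markers of Kupffer cells and other macrophages was listed, so the labelled cell type could not be checked here. All 20 listed markers of sinusoidal endothelial cells, which line the liver capillaries, were lower in the authors' deposited table. In the authors' deposited table their median log2 fold change was -3.16. For comparison, 61.4% of all genes listed by the authors were called lower. Of genes tested by the authors other than the members, 8.32% were called lower at the same limits. The markers were chosen with earlier results of these data known, so their count is a description. In such bulk RNA, fewer cells of a type and less RNA per cell cannot be told apart.

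Interferons are secreted signals of infection and tissue damage. Type I interferons and interferon-gamma bind separate receptors, and both use JAK kinases to activate STAT transcription factors. STAT complexes with Irf9 bind the interferon-stimulated response element (ISRE), a paired GAAA repeat that Irf1 also recognises, whereas STAT dimers bind the gamma-activated site (GAS), a spaced palindrome. The induced genes encode nucleic acid sensors, proteins that block viruses or intracellular bacteria, and feedback inhibitors. Kupffer cells and monocyte-derived macrophages of the liver respond to both kinds of interferon.

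Promoter sequence is shown first because the members with changed RNA include neighbours that share it. RefSeq promoters (GRCm38.p6, from 250 bases before to 50 bases after each start site) matched 27 of the 37 members by symbol, with 38 start sites. Dhx58, Gbp8, Ifi27l2a, Mx1, Mx2, Oas2, Slfn10-ps, Trim29 and Zbp1 were among those with no entry. The ISRE core was searched as GAAA, any 2 bases, then GAAA, on both strands. It occurred in 16 of the 38 member promoters (42.1%, exact 95% binomial interval 26.3% to 59.2%, promoters taken as independent although paralogs share sequence) and in 1131 of all 32851 promoters of that length (3.44%). By gene, 12 of the 19 higher members with an entry and 2 of the 7 lower ones had a match. The GAS core was searched as TTC, any 3 bases, then GAA, which reads the same on both strands. It cannot lie wholly within an ISRE core, although both can share bases. The GAS core occurred in 2 of the 38 member promoters (5.26%, interval by the same method 0.64% to 17.7%) and in 8.30% of all promoters. Its 2 holders were Trim30c, which was higher, and Irf1, which was lower. A match is a run of letters and not a shown binding site.

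Ifi206, Ifi208 and Ifi213, of the Ifi200 cluster on chromosome 1, are shown because their upstream sequences are almost the same while their fold changes differ in sign. Each line gives the 250 bases before the start site, 5′ to 3′ on the strand of the gene, with the ISRE core in capitals.
Ifi206 (chr1:173491319-173491568, GRCm38.p6, minus strand, higher in WD): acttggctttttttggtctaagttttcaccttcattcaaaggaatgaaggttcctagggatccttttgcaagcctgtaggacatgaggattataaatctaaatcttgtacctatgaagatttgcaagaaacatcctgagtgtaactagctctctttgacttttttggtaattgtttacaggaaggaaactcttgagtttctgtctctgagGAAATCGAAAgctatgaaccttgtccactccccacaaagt
Ifi213 (chr1:173599273-173599522, GRCm38.p6, minus strand, higher in WD): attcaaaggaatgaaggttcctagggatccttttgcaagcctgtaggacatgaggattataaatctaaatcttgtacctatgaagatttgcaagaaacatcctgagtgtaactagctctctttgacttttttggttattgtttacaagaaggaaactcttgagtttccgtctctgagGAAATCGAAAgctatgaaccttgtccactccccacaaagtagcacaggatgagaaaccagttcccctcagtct
Ifi208 (chr1:173673415-173673664, GRCm38.p6, plus strand, lower in WD): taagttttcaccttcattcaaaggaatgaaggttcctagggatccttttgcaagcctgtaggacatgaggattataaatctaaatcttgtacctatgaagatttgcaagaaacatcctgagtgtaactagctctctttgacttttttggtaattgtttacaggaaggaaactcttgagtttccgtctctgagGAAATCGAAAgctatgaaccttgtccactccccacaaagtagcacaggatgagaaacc
Lined up at the core without gaps, Ifi208 and Ifi206 had 231 of 232 bases in common (99.6%), Ifi208 and Ifi213 had 233 of 235 (99.1%), and Ifi206 and Ifi213 had 214 of 217 (98.6%). In the 30 bases around the core, Ifi208 and Ifi213 did not differ at any position. Other pairs among the 6 genes of the cluster with a core upstream shared 31.2% to 65.4% of their bases in the same ungapped comparison. An inserted or lost base shifts every base beyond it, so these shares can understate likeness. The 65.4% was for Ifi205 and Ifi211, both higher in WD, which differed at 3 of the 30 bases around the core. Near-identical upstream sequence is therefore not shown to be confined to Ifi206, Ifi208 and Ifi213. Ifi209, between Ifi213 and Ifi208 on the chromosome, had no ISRE core in its window and so was not compared.

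The cores of other higher members are shown with 10 bases on either side, to let the copies be compared between families. Where the core lies on the opposite strand it reads TTTC, 2 bases, then TTTC. All coordinates are GRCm38.p6 and the sequences run 5′ to 3′ on the strand of the gene.
Ifi214 (chr1:173536017-173536046, minus strand): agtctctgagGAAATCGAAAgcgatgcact
Ifi211 (chr1:173913064-173913093, minus strand): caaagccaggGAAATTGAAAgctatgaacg
Ifi205 (chr1:174031870-174031899, minus strand): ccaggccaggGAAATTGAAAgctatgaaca
Oas3 (chr5:120777715-120777744, minus strand): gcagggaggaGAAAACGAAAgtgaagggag
Gbp2 (chr3:142620594-142620623, plus strand): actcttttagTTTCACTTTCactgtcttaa
Gbp2b (chr3:142594700-142594729, plus strand): gtacttctaaTTTCACTTTCttctttatca
Gbp3 (chr3:142559989-142560018, plus strand): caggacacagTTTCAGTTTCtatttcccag
Slfn8 (chr11:83020839-83020868, minus strand): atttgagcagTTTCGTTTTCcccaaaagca
Ifit1bl1 (chr19:34602053-34602082, minus strand): actctgtaggTTTCATTTTCtgtaggttgg
Ifit1bl2 (chr19:34640775-34640804, minus strand): actgagactgGAAAGTGAAActgaagcctg
Upstream of the start sites of 13 members there were 16 such copies, and the first base of the core lay 23 to 137 bases before the start. Ifit1bl2 and Gbp3 each held 2 copies before the same start site. The 2 copies of Ifit1bl2 also lie upstream of Ifit1, which begins at 34640871 on the plus strand and was not listed. Slfn1, Slfn4, Oasl1, Oasl2, Parp8, Trim30c and Ifi209 were higher in WD without a match to the ISRE core in this window. Of these, Slfn1, Slfn4, Oasl1 and Ifi209 held the shorter core of AAA, any 2 bases, then GAAA. By gene, that shorter core was in 16 of the 19 higher members with an entry and 3 of the 7 lower ones. By promoter it was in 55.3% of member promoters and in 10.6% of all promoters, more than the longer core. A count by gene is not on the scale of these shares, since a gene with several start sites has more windows to match. Trim2, a lower member, had its only match after the start of 1 of its 5 entries.

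Most members listed were higher in WD. Of the 37 members in the authors' deposited table, 26 rose, 9 fell and 2 had an adjusted p above the limit. Among all listed genes of that table, 22.0% were called higher and 61.4% lower. The median log2 fold change was 1.56 among the 26 higher members and 1.34 among all higher genes of the authors' deposited table. For the lower genes the medians were -1.27 among the 9 members and -2.10 among all in the authors' deposited table. The members were abundant for this table, with a median mean normalized count of 327 against 37.5 for all listed genes of the authors' deposited table.

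**Figure D1:**
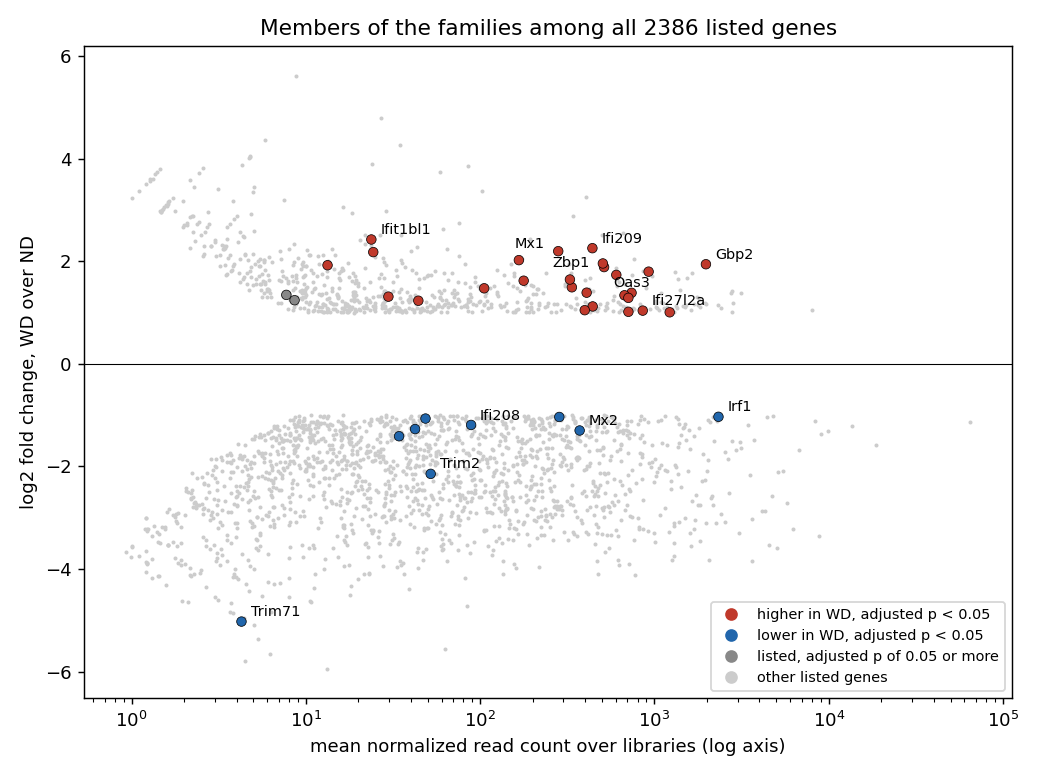
Each point is a listed gene, with its mean normalized read count over the libraries (log axis) against its log2 fold change of WD over ND. Of the members, 26 are higher (red), 9 lower (blue) and 2 without an adjusted p below 0.05 (dark grey), and the empty band around 0 is the limit of the table.

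Counted by name, all 4 listed members with Oas names, all 4 with Gbp names and all 4 with Slfn names rose in the authors' deposited table. Of 11 members with Ifi names, the authors' deposited table had 9 higher and 2 lower. Of 6 members with Trim names, 5 were lower and 1 was higher in the authors' deposited table, where 61.4% of all listed genes were lower. Differences between families were not tested. Against the mouse gene annotation (GENCODE M21), the listed genes were 4 of 12 annotated Oas names, 4 of 12 Gbp names, 4 of 11 Slfn names, 11 of 34 Ifi names and 6 of 71 Trim names. No Irg or Isg name was listed, out of 4 and 3 annotated genes.

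**Figure D2:**
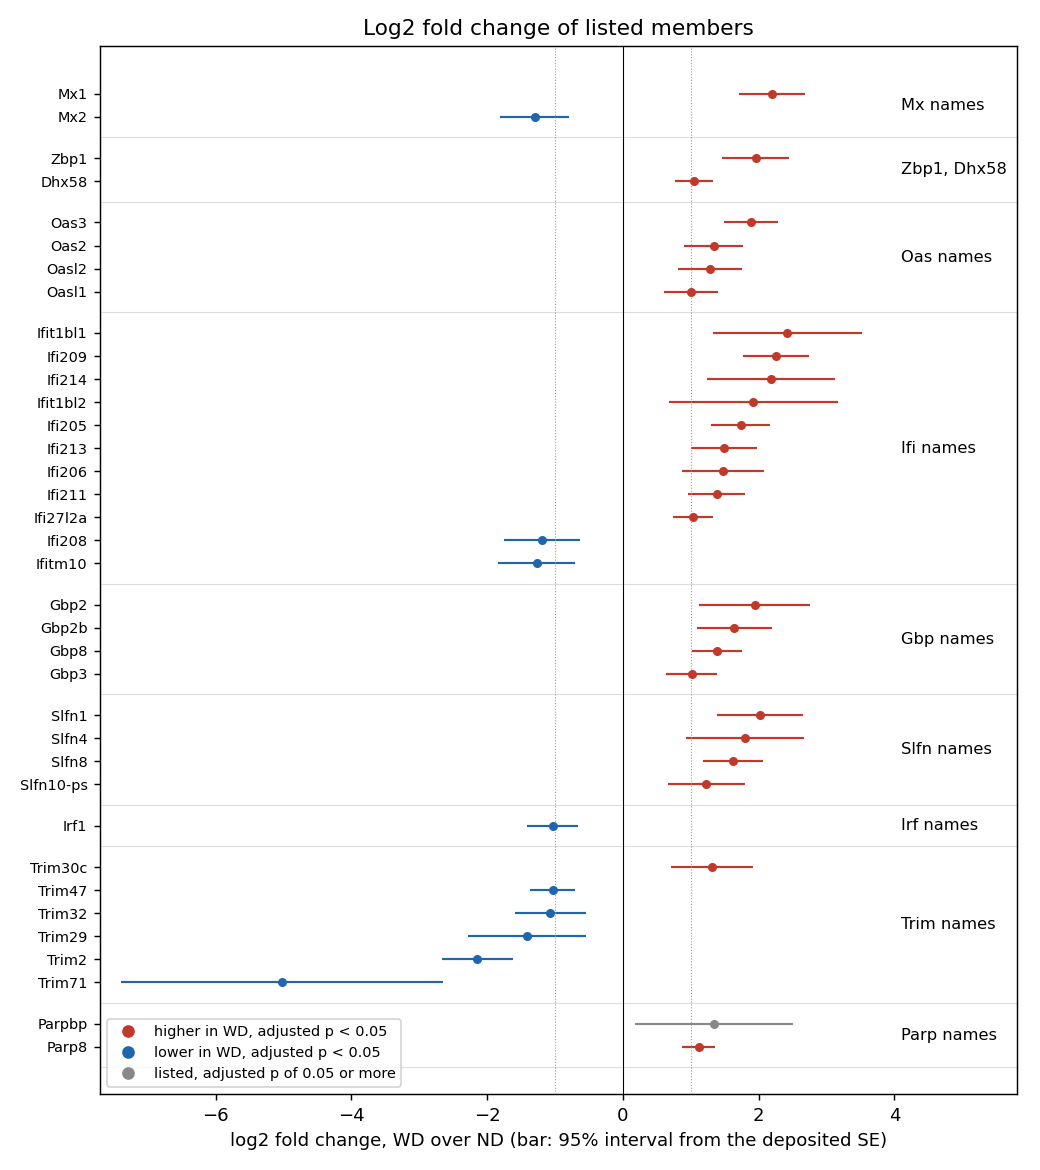
Log2 fold change of WD over ND for 36 members, grouped by name, with 95% intervals computed from the deposited SE. Oas, Gbp and Slfn genes lie to the right of 0, Mx1 and Mx2 on opposite sides, and Trim71 has the widest interval, from -7.40 to -2.65.

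To show levels and not only ratios, a mean normalized count per diet was derived for each member. It was computed from the deposited overall mean and fold change on the assumption that 4 libraries per diet contributed equally. These derived means carry no error of their own.

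Sensors of foreign nucleic acid made up the first group. Zbp1, which binds nucleic acid in the left-handed Z form and can start necroptosis (ENSMUSG00000027514, chromosome 2, 173206612 to 173218923, mm10), had derived means of 207 in ND and 804 in WD. The authors' deposited table gave a 3.88-fold rise, a log2 of 1.96 ± 0.25 with an adjusted p of 1.37e-13. Dhx58, a helicase of the RIG-I family without a signalling domain, had derived means of 260 and 536 and rose by a log2 of 1.05 ± 0.14 in the authors' deposited table. The exons of Dhx58 share 141 bases with an antisense transcript, Dhx58os, and whether the counting used strand is not given in the sources used here.

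The oligoadenylate synthetases make a short second messenger on double-stranded RNA that activates the ribonuclease RNase L. Oas3 (ENSMUSG00000032661, chromosome 5, 120753098 to 120777661, mm10) had the smallest p of all members, at rank 405 of 17531 tested genes, a number inferred from the deposited p-values. Its derived means were 219 in ND and 809 in WD, and the authors' deposited table gave a log2 fold change of 1.89 ± 0.20 (adjusted p 6.08e-19). Oas2, its neighbour on the same strand, had derived means of 382 and 964, with 1.34 ± 0.22 in the authors' deposited table. The related genes Oasl2 and Oasl1 lie side by side elsewhere on chromosome 5. Oasl2 stood at 1.29 ± 0.24 and Oasl1, whose product lacks synthetase activity and restrains translation of Irf7, at 1.01 ± 0.20 in the authors' deposited table. Oasl1 was the more abundant of this pair per length, at 469 mean counts per kb of exon against 111 for Oasl2. The 8 annotated genes of the Oas1 group beside Oas3 were not listed.

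The Ifi200 genes belong to the PYHIN family, in which many but not all proteins pair a pyrin domain with DNA-binding HIN domains. The domains of each gene were not examined here. Of 14 annotated genes in this cluster, which spans 681 kb of chromosome 1, 6 rose, Ifi208 fell and 7 were not listed. Ifi209 (chromosome 1, 173630917 to 173647928, mm10) had derived means of 153 in ND and 728 in WD and the largest rise of the cluster, a log2 fold change of 2.26 ± 0.25 by the authors' deposited table (adjusted p 2.00e-18). Ifi205 followed by p, with derived means of 279 and 929 and a log2 fold change of 1.73 ± 0.22 in the authors' deposited table.
Ifi213 had derived means of 176 and 496, with 1.49 ± 0.25 in the authors' deposited table. Ifi206 had 55.8 and 155, with 1.47 ± 0.31 in the authors' deposited table. Ifi208 (ENSMUSG00000066677, chromosome 1, 173673675 to 173698395, mm10), whose upstream sequence is printed above with those of Ifi206 and Ifi213, had derived means of 123 in ND and 54.0 in WD. It fell by 1.19 ± 0.29 log2 units in the authors' deposited table (adjusted p 0.000235). The 95% interval of Ifi208 ran from -1.75 to -0.63 and those of Ifi206 and Ifi213 from 0.87 to 2.08 and from 1.01 to 1.98.
Ifi211 and Ifi214 also rose, at 1.38 ± 0.22 and 2.18 ± 0.48, the second at a mean count of 24.3 in the authors' deposited table. Aim2, the inflammasome sensor at the edge of the cluster, and Ifi204, Ifi203 and Mndal within it were not listed.

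Reads of paralogs can be assigned to the wrong copy, and the rule by which the authors counted reads that fit several genes is not given in the sources used here. As a measure, the share of each member's 50-base words that also occur in transcripts of another annotated gene was computed. It was 72.8% for Ifi211, 33.7% for Ifi209, 25.6% for Ifi206 and 20.9% for Ifi208, the 4 members above 20%. Ifi208 shared 18.1% of its words with Ifi213, and Ifi209 shared 33.4% of its words with Ifi214. For Mx1 and Mx2 the share was 4.37% and 4.38%, and 13 members, among them Oas3, Zbp1 and Ifi27l2a, were under 1%. The values of the 4 Ifi200 genes above 20%, Ifi211 first, are therefore uncertain in size, and whether their sign or call is affected was not tested. Ifi211 shared 44.7% of its words with Ifi205, which also rose. The limit of 20% is arbitrary, and the same doubt holds for members not far below it. Among those were Ifi205 (18.6%), Gbp8 (18.1%), Ifi213 (15.6%) and Ifi214 (14.6%).

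**Figure D3:**
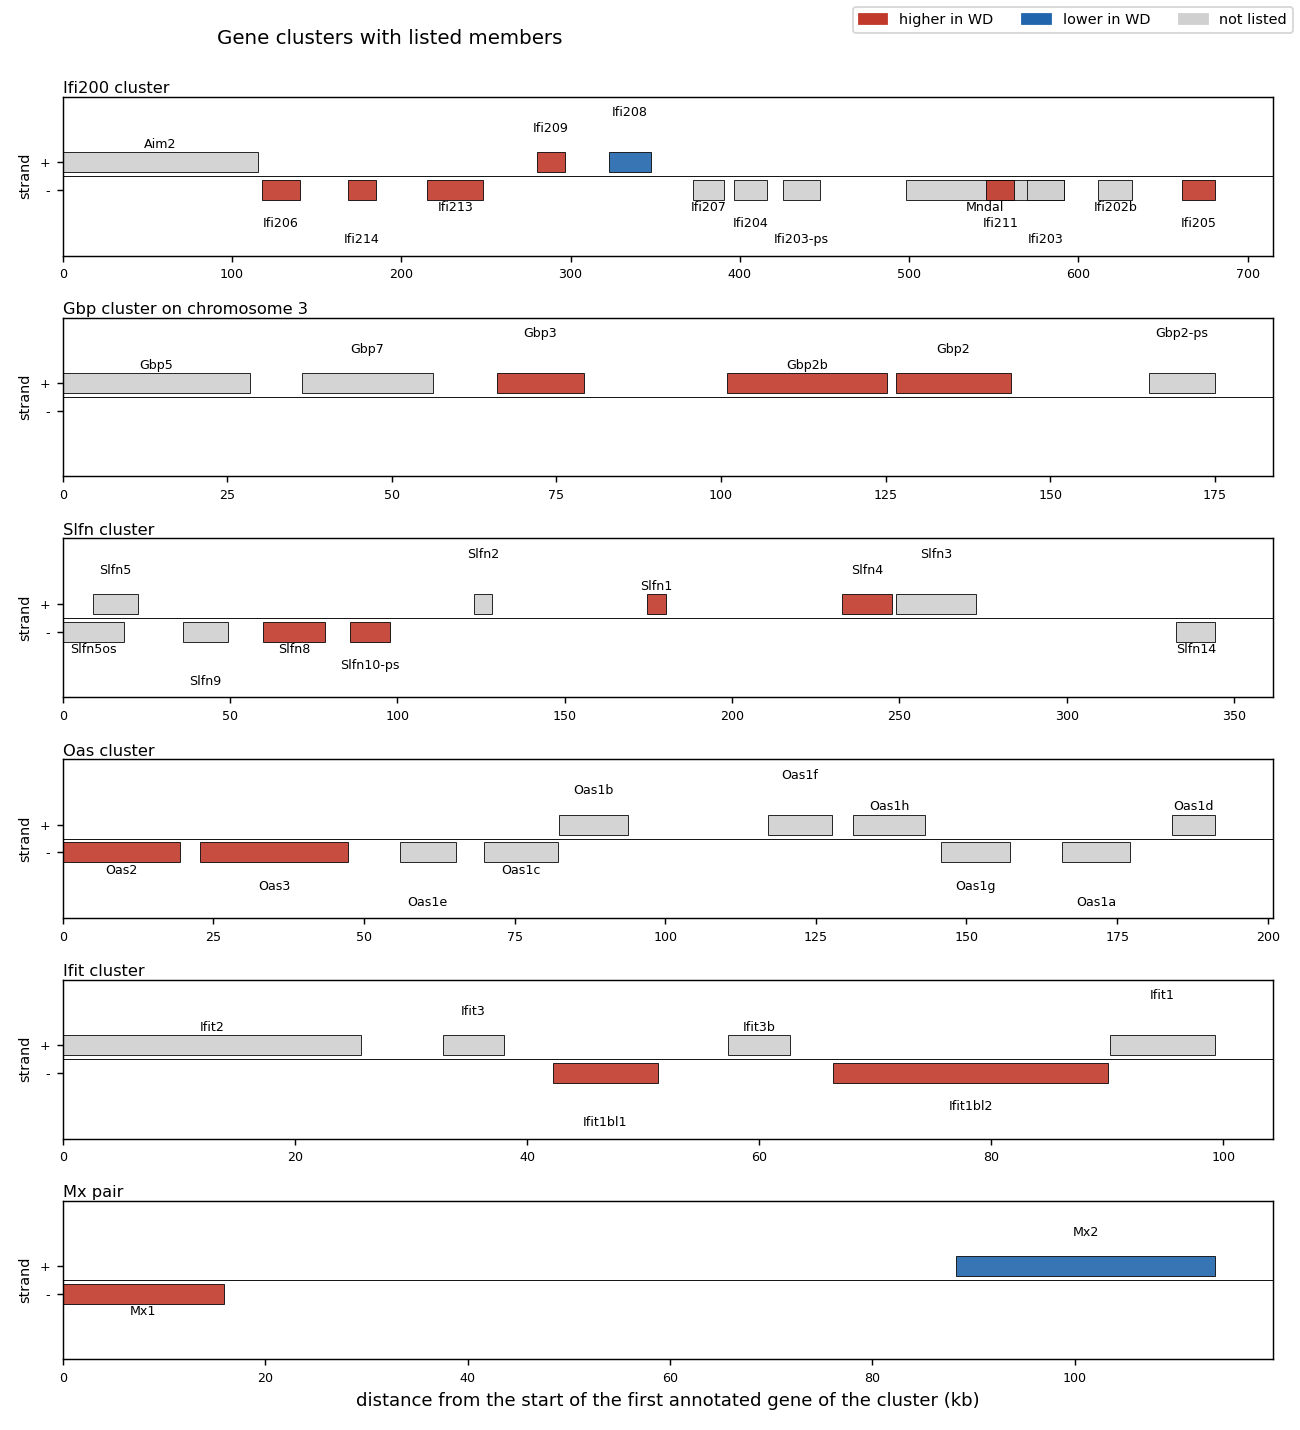
Annotated genes of 6 clusters drawn to scale by strand, as distance in kb from the first gene of the cluster, coloured red where higher in WD, blue where lower and grey where not listed. Ifi208 is the blue gene beside the red Ifi209, and Mx2 the blue gene beside the red Mx1.

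Mx1 and Mx2 are dynamin-like GTPases that block virus replication, and in C57BL/6 mice both are known to carry mutations that impair the protein. The annotation lists Mx1 as protein-coding and Mx2 as a polymorphic pseudogene. Mx1 (ENSMUSG00000000386, chromosome 16, 97447035 to 97462907, minus strand, mm10) had derived means of 100 in ND and 460 in WD. The authors' deposited table gave a 4.58-fold rise, a log2 of 2.20 ± 0.25 with an adjusted p of 3.87e-17. Mx2 (ENSMUSG00000023341, chromosome 16, 97535308 to 97560900, plus strand, mm10) had derived means of 529 in ND and 215 in WD. By the authors' deposited table it fell 2.46-fold, a log2 of -1.30 ± 0.26 with an adjusted p of 6.85e-06. Thus Mx2 was above Mx1 in ND and below it in WD, and their 95% intervals of 1.71 to 2.68 and -1.81 to -0.79 lie on opposite sides of 0. The difference between the genes was not tested, since values per library are needed for it.

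Guanylate-binding proteins coat the vacuoles and membranes of intracellular pathogens and are classical targets of interferon-gamma. Gbp2 was the most abundant of the 4 listed Gbp genes per length, at 785 mean counts per kb of exon, with derived means of 815 in ND and 3133 in WD. It rose by a log2 of 1.94 in the authors' deposited table, with an SE of 0.42 that is wide for its mean count of 1974. Its neighbours Gbp2b (1.64 ± 0.28) and Gbp3 (1.01 ± 0.19) also rose in the authors' deposited table. Gbp8, in the Gbp cluster on chromosome 5, stood at 1.39 ± 0.19 in the authors' deposited table and shares 61 and 60 exonic bases with Gbp4 and Gbp9. Gbp4, Gbp5, Gbp6, Gbp7 and Gbp9 were not listed.

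Schlafen genes are linked to quiescence of lymphocytes and to myeloid differentiation. Slfn1 had derived means of 65.9 in ND and 268 in WD, a log2 fold change of 2.02 ± 0.32 in the authors' deposited table. Slfn4, expressed in myeloid cells, was the most abundant of the 4 listed Schlafen genes per length, at 234 mean counts per kb of exon, with derived means of 414 in ND and 1438 in WD and 1.80 ± 0.44 in the authors' deposited table. Slfn8 (1.62 ± 0.23) and the pseudogene Slfn10-ps (1.23 ± 0.29) rose too in the authors' deposited table, and Slfn10-ps shares 19.7% of its 50-base words with other genes, chiefly Slfn9. Slfn2, Slfn3, Slfn5, Slfn9 and Slfn14 of the same cluster were not listed.

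Ifi27l2a, a small membrane protein gene (ENSMUSG00000079017, chromosome 12, 103442167 to 103443680, mm10), had the highest level per length of all members. Its mean count per kb of exon was 1850, against 785 for Gbp2, the next. It had derived means of 561 in ND and 1152 in WD, and the authors' deposited table gave a log2 fold change of 1.04 ± 0.15 (adjusted p 1.22e-10). The Ifit proteins bind viral RNA ends. Of the 6 Ifit genes annotated in the cluster on chromosome 19, the Ifit1-like genes Ifit1bl1 and Ifit1bl2 rose, at 2.42 ± 0.56 and 1.92 ± 0.63 in the authors' deposited table. Both were scarce, at 23.7 and 13.3 mean counts by the authors' deposited table, and Ifit1, Ifit2, Ifit3 and Ifit3b were not listed. Ifitm10, which belongs by name to a family of antiviral membrane proteins, fell by 1.27 ± 0.29 log2 units in the authors' deposited table.

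**Figure D4:**
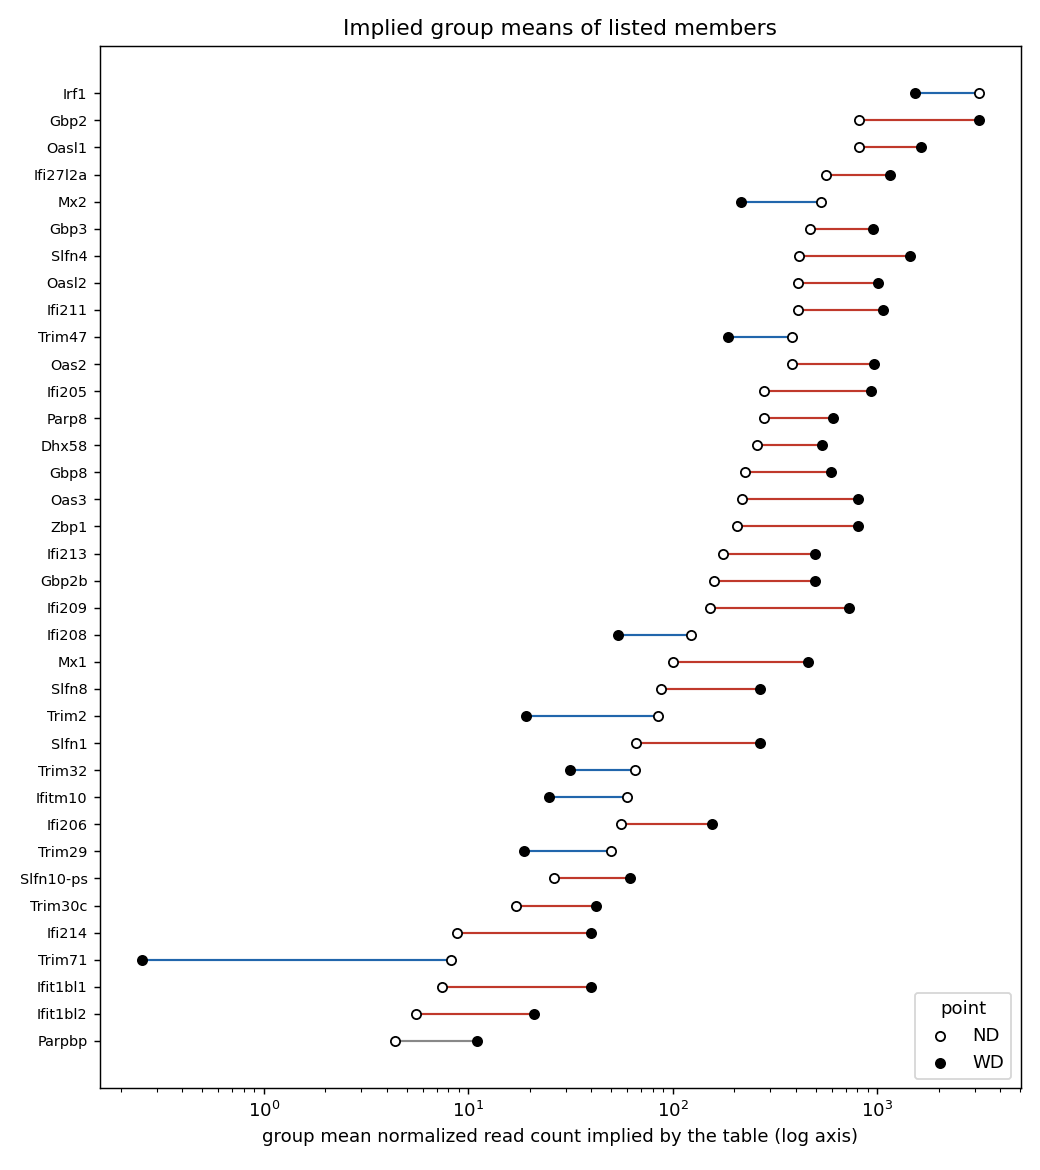
Mean normalized read count of 36 members per diet, derived from the deposited overall mean and fold change (log axis), open circles for ND and filled circles for WD, ordered by the ND value. Irf1, at 3129 in ND and 1529 in WD, and Mx2, at 529 and 215, move to the left, while Gbp2 moves from 815 to 3133.

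Transcription factors of the Irf family carry interferon signals to DNA. Irf1, induced by interferon-gamma and itself an activator of Gbp and antigen presentation genes, had derived means of 3129 in ND and 1529 in WD. It fell by 1.03 ± 0.19 log2 units in the authors' deposited table (adjusted p 9.69e-07), while the 4 listed Gbp genes rose. Irf1 shares 135 exonic bases with an antisense transcript, Gm17334. Irf7, Irf9, Irf5 and Irf8 were not listed.

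Many Trim and Parp genes are not known as interferon-inducible. Trim30c, a paralog of the interferon-induced Trim30a, rose by a log2 of 1.31 ± 0.31 in the authors' deposited table. Trim2, a ubiquitin ligase known from neurons, had derived means of 84.8 in ND and 19.2 in WD and fell by 2.15 ± 0.27 log2 units in the authors' deposited table (adjusted p 3.27e-14). Trim47 (-1.04 ± 0.17), Trim32 (-1.07 ± 0.27) and Trim29 (-1.41 ± 0.44) fell as well in the authors' deposited table. Trim71, a stem cell gene, had the lowest mean count of all members, 4.27, and a log2 fold change of -5.03 with an SE of 1.21 in the authors' deposited table. Parp8, a mono-ADP-ribosyltransferase gene, rose with the smallest SE of all members, at 1.12 ± 0.12 in the authors' deposited table. Parpbp, which binds PARP1 and is no PARP itself, had 1.34 ± 0.59 with an adjusted p of 0.0731 in the authors' deposited table.

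Several genes that commonly lead an interferon signature were outside the table. Of the 8 single genes named in the rule besides Mx1 and Mx2, Zbp1 and Dhx58 were listed, and Rsad2, Usp18, Xaf1, Cmpk2, Rtp4 and Bst2 were not. Isg15, Isg20, Ifi44, Ifih1, Irgm1 and Irgm2 were not listed either. Whether these changed by less than 2-fold, varied too much or were not measured cannot be read from the table.

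A list of 81 interferon pathway gene symbols outside the family names was examined by role. By the authors' deposited table, 9 of them rose (11.1%), 5 fell (6.17%), 1 was listed without passing and 66 were not listed. These shares are over all 81 genes, whether or not the authors tested each. Pydc3, Pydc4 and Mnda on the list were not among the 14 annotated names of the Ifi200 cluster. Such symbols could be missing because the gene goes by another name, so the count of genes not listed is an upper one. For comparison, over tested genes only, 2.86% of the 17494 genes other than the family members were called higher and 8.32% lower at the limits of the table. The list was chosen with earlier results of these data known, so its share above or below these figures is not independent evidence. None of the 8 interferon genes was listed, Ifnb1 and Ifng included. Of 6 receptor genes, Ifnlr1 of the interferon-lambda receptor was listed, at 1.23 ± 0.52 and an adjusted p of 0.0623 in the authors' deposited table.

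Among the signalling genes, Jak1, the kinase shared by the receptors of both interferon pathways, had derived means of 6393 in ND and 3162 in WD and fell by 1.02 ± 0.11 log2 units in the authors' deposited table. Both listed feedback inhibitors fell in the authors' deposited table, Socs1 with a log2 fold change of -1.25 ± 0.23 and Socs3 with -1.48 ± 0.16. Of 13 sensors and adaptors, the endosomal receptors Tlr9 (1.52 ± 0.18) and Tlr8 (1.06 ± 0.19) rose and 11 were not listed, each value from the authors' deposited table.

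Among 32 other induced effectors, the authors' deposited table had 4 higher and 2 lower. Epsti1 (1.06 ± 0.13), Phf11a (1.53 ± 0.29) and Phf11b (1.46 ± 0.26) rose in the authors' deposited table. The chemokine genes Cxcl9 and Cxcl10, whose products share the receptor Cxcr3, differed in sign. Cxcl9 had derived means of 1100 in ND and 2436 in WD, with 1.15 ± 0.46 and an adjusted p of 0.0450 in the authors' deposited table. Cxcl10 had derived means of 3262 and 1146, with -1.51 ± 0.20 and an adjusted p of 1.31e-12 in the authors' deposited table. Iigp1, an immunity-related GTPase gene, fell by 1.45 ± 0.28 log2 units in the authors' deposited table. The antigen presentation list held 12 genes, of which the regulators Nlrc5 (1.82 ± 0.20) and Ciita (1.65 ± 0.19) rose in the authors' deposited table, and the other 10, among them Tap1, Psmb8 and B2m, were not listed.

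**Figure D5:**
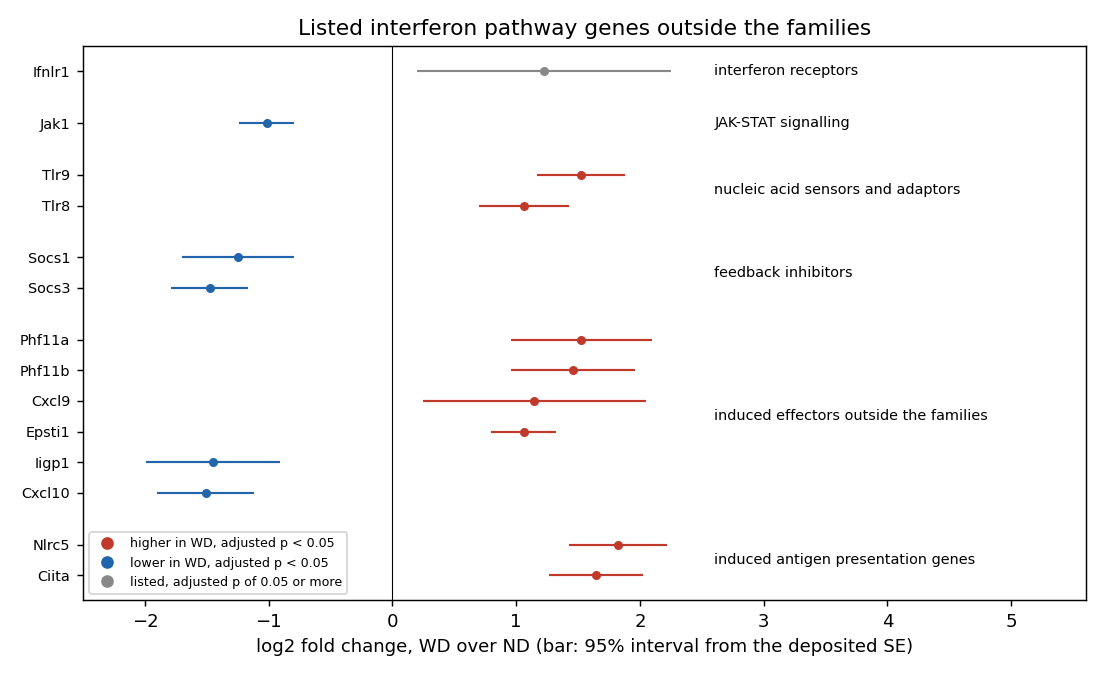
Log2 fold change of WD over ND for 14 listed genes of the interferon pathway outside the families, grouped by role, with 95% intervals from the deposited SE. Cxcl9 and Cxcl10 lie on opposite sides of 0, and Jak1 and both feedback inhibitors lie below 0.

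The term enrichment deposited by the authors was run on genes listed with a rise, not only on those with an adjusted p below 0.05. The 9 lower members could not enter it. In the authors' deposited table the term cellular response to interferon-beta held 12 genes at 17.2-fold enrichment (Benjamini p 9.25e-09), of which 9 were members, 6 of them Ifi200 genes and 3 Gbp genes. Defense response to virus held 26 genes in the authors' deposited table, 12 of them members. Cellular response to interferon-gamma held 16 genes at 12.6-fold in the authors' deposited table, and its members were the 4 Gbp genes. Regulation of ribonuclease activity held 4 genes in the authors' deposited table, which were Oas2, Oas3, Oasl1 and Oasl2.

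Some markers of other cell types were also higher in WD, while many were not listed and some fell. The marker lists were chosen with earlier results of these data known, so their counts are a description. Of genes tested by the authors other than the family members, 2.86% were called higher and 8.32% lower at the same limits. Each marker list is counted whole, whether or not the authors tested each gene. Of 25 T and NK cell markers, which include producers of interferon-gamma, the authors' deposited table had 14 higher and none lower. The derived means of the 16 listed T and NK cell markers summed to 1482 in ND and 4345 in WD, and Cd3d, Cd3e and Cd4 were not listed. Of 12 markers of plasmacytoid dendritic cells, a source of type I interferon, Ccr9 and Runx2 rose in the authors' deposited table and 10, Siglech among them, were not listed. Of 15 conventional dendritic cell markers the authors' deposited table had 5 higher and 1 lower, Zbtb46 (-1.13 ± 0.14). Of 14 recruited monocyte markers the authors' deposited table had 6 higher and 2 lower, Fn1 (-1.13 ± 0.27) and Hp (-1.52 ± 0.28). The listed markers of these types summed to 1907 in ND and 4751 in WD for conventional dendritic cells. For recruited monocytes they summed to 96705 in ND and 52190 in WD, most of it Fn1, which fell. Of 12 hepatocyte markers the authors' deposited table had 3 higher (Cyp3a11 at 3.91 ± 0.71, Apob at 1.71 ± 0.62 and Ass1 at 1.19 ± 0.16 on the log2 scale) and none lower, and Alb, Apoa1 and Ttr were not listed. The 4 listed hepatocyte markers summed to 736 in ND and 1830 in WD, most of it Ass1, at 615 and 1402. The list for B and plasma cells held 12 genes, of which 2 rose in the authors' deposited table, Ighm by a log2 of 1.17 ± 0.24 and Ms4a1 with derived means of 23.8 in ND and 47.7 in WD. They summed to 1064 in ND and 2389 in WD, and Cd79a and Cd79b were among the 10 not listed. None of 10 neutrophil markers was listed. The part of these cells, and of the fall in endothelial markers, in the changes of the interferon-inducible genes was not tested.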

How the data were processed

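RNA of liver macrophages from 8 mice, 4 per diet by the series design, was sequenced after poly(A) enrichment, per the labels' protocols. The build mm10 and the tools DESeq, edgeR, featureCounts, HISAT2, STAR, STAR-Fusion and StringTie are given, per the submitters' processing notes, without versions or roles. Per the file headers, the columns are those of a DESeq2 result. The signal column deposited by the authors is the mean of normalized read counts, the deposited log2 fold change has an SE on the same scale, and the deposited score is their ratio (largest departure 7.06e-08). Each row also has a deposited p-value with its Benjamini-Hochberg adjustment. The authors' enrichment gives, per term, the number of genes, a fold ratio and a Benjamini p-value. Depth per library is unknown, so precision is given by the authors' SE, whose median was 0.48 in the 11 members with mean counts below 50 and 0.23 in the other 26.

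No test of differential expression was added. Calls use the authors' adjusted p below 0.05, and 95% intervals are the fold change ± a normal quantile times the SE. The number of tested genes, 17531, was the whole number that made most ranks (91.0%) whole within 0.02, a step tested on simulated data. Coordinates, gene types and exon lengths come from GENCODE M21 (GRCm38, the assembly of mm10), and promoters from RefSeq. Python 3.11.15, pandas 2.3.3, numpy 2.4.6 and scipy 1.17.1 were used. Every called member was named, and 1 member and 1 pathway gene enter the counts but are not reported here. The members and gene lists were chosen with earlier results of these data known. Alternatives changed the p limit, a count minimum of 50, the size of change, the genes counted and the promoter motif.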

Additional observations from a re-analysis of the deposited data

How the results depend on the processing

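No paired analysis was possible because the table holds no values per library, and for the same reason no library was left out and no other normalization or count model was run. The 26 higher members became 13 when the 95% interval had to lie wholly beyond 2-fold, and 21 to 28 under the other 6 alternatives. The 9 lower members became 2 with the interval beyond 2-fold, 5 with a mean count of at least 50, 4 without the Trim and Parp names, and 5 without members that share exonic bases with another annotated gene, an alternative chosen after seeing the data. Of the pathway list, 3 genes were higher and 2 lower with the interval beyond 2-fold, and counts stayed within 7 to 10 and at 5 under the other alternatives. The ISRE core was in 39.5% of member promoters when bases after the start were left out, and a shorter core of AAA, any 2 bases, then GAAA was in 55.3%, against 10.6% of all promoters. Low counts limit Trim71 and Parpbp.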
